A study of Mus musculus with 8 samples.

Results

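Itga7, Cd34, Vcam1, Ptprc, Itgam, Ly6a and Pecam1 encode the surface proteins by which muscle stem cells are told from their neighbours in a cell sorter. These 7 genes, of 45706 gene lines in the count table, were found by symbol, and all 7 passed the filter on low counts. For this study cells were sorted in on α7-integrin (Itga7) and CD34 (Cd34). They were sorted out on CD45 (Ptprc), CD11b (Itgam), Sca1 (Ly6a) and CD31 (Pecam1). Vcam1 is a further surface marker of muscle stem cells that the labelled sort did not use. RNA-seq was made from 8 libraries of such cells, all from hindlimb muscle of wild-type (WT) C57BL/6 female mice of 8 to 12 weeks. Of these, 5 were freshly isolated cells (fresh 1 to 5) and 3 were cells kept for 48 h on a hydrogel of 12 kPa in a medium with fetal bovine serum (cultured 1 to 3). Fresh 1 to 3 were sequenced in run 1, and fresh 4 and 5 shared run 2 with all 3 cultured libraries. The labels do not say whether libraries came from separate animals or cultures, or whether animals were pooled, so a p-value here covers the spread of these libraries alone, and that spread may be technical.

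Muscle stem cells lie between the muscle fibre and its basement membrane, and they divide and fuse after injury. The α7 integrin chain pairs with the β1 chain to bind laminin of that membrane, CD34 is a sialomucin of stem cells and blood vessels, and VCAM-1 is an immunoglobulin adhesion protein that binds the α4β1 integrin. CD45 is a tyrosine phosphatase of all nucleated blood cells, CD11b is an integrin chain of myeloid cells, Sca1 is carried by fibro-adipogenic and endothelial cells, and CD31 joins endothelial cells to each other. A surface protein can persist or be shed while its transcript changes, and only transcripts were measured here.

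Total counts ran from 13919508 to 20068199 per library. Genes with at least 1 count numbered 32710 to 34689 in the run-1 fresh libraries, 20480 to 20898 in the run-2 fresh libraries and 15415 to 17852 in the cultured ones, so the runs differed in how many low genes were seen. Levels are given as CPM, the counts of a gene for every 1000000 counts of the library after scaling, and means are given ± SD with n = 5 fresh and n = 3 cultured libraries. All 12 genes of the muscle stem cell list had counts in every fresh library, among them the defining factor Pax7 at 669 to 1362 CPM. Pax7 was at 51.8 to 92.0 CPM in the cultured libraries. Markers of unwanted cells were also present in the fresh libraries: the 14 fibro-adipogenic genes summed to 1114 to 1864 CPM, the 12 pericyte and smooth muscle genes to 851 to 3326 CPM and the 8 Schwann cell genes to 446 to 2065 CPM. In the cultured libraries the same sums were 26.4 to 36.2, 53.2 to 157 and 13.2 to 33.8 CPM. Fresh 1 had the lowest fresh sum of all 3 lists. In such bulk samples, fewer cells of a type and less RNA per cell cannot be told apart. Which cells made the transcripts of these 3 lists was not tested.

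After 48 h in culture, Vcam1 fell, Itga7 and Cd34 did not pass the test, and no sort-out gene passed it either. Of the 7 genes, 1 was lower and 0 were higher in culture at an adjusted p of 0.05 (edgeR quasi-likelihood test, with sequencing run as a term and Benjamini-Hochberg adjustment over 19054 genes). Over all genes tested, 26.9% were called, 18.0% as lower and 8.87% as higher. Of all calls, 33.0% were thus higher in culture, and 46.2% were when no scaling factors were used. The test sets the cultured libraries against the fresh libraries of run 2, and run 1 adds to the estimate of the spread. Vcam1 was also the 1 member with no overlap between fresh and cultured libraries, and 39.9% of all genes tested had none. With the genes at 0 in a run-2 group set at their bound, 5 of the 7 members had a fold. Their median log2 fold change was 0.62, against -0.29 over all genes tested. That median is the value of Itga7 itself, which was not called. Of the 5, only Vcam1 was called, so the median does not show that the members rose. The plot of the 7 genes by library shows the 2 scales on which they lie, with 3 genes at 50.8 CPM or more in every library and 4 that were near 0 in most.

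**Figure D1:**
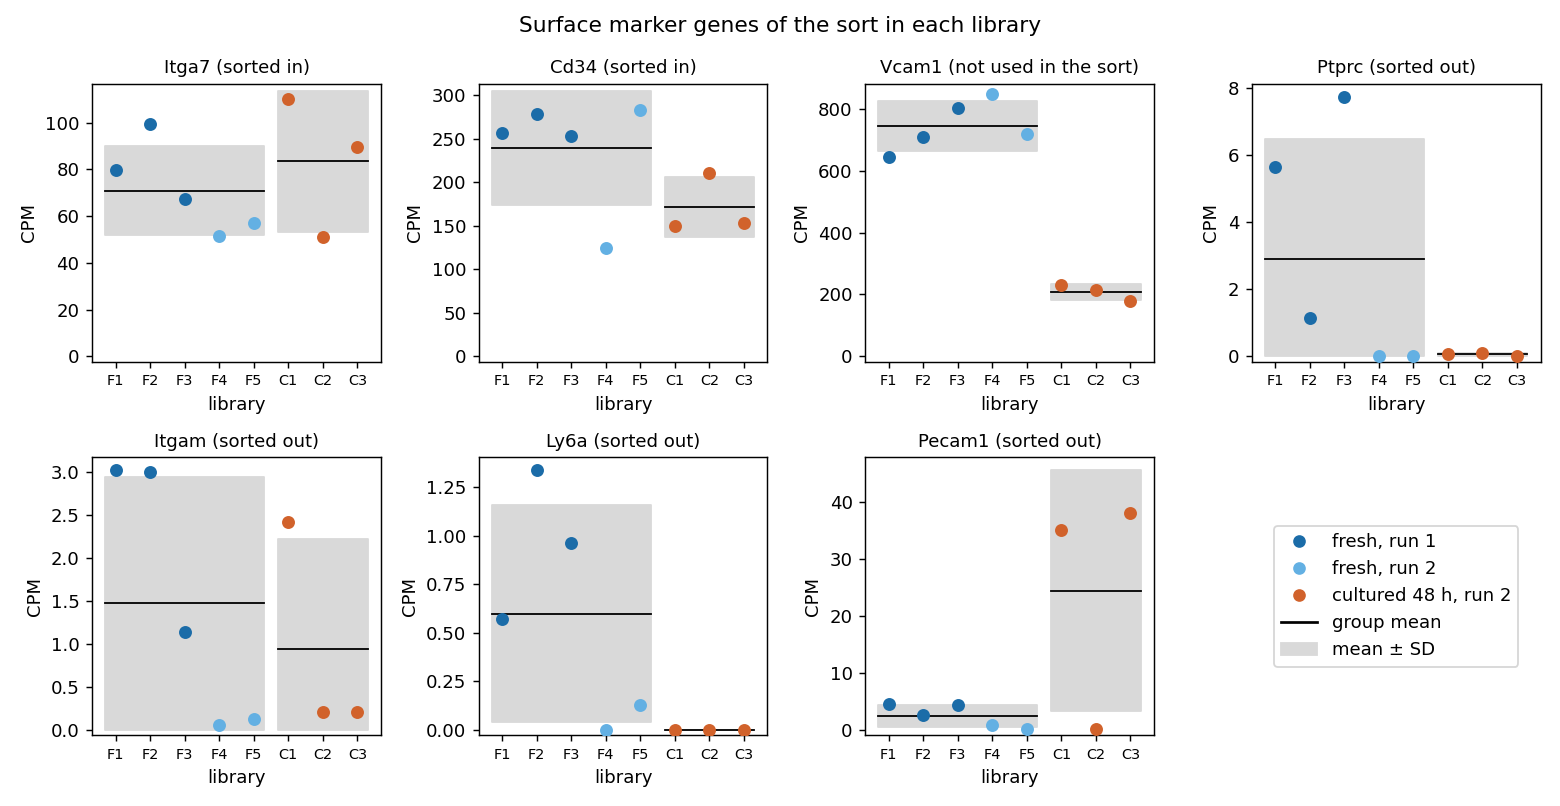
Level of each member in CPM (y axis, a linear scale per panel) in fresh 1 to 5 (F1 to F5) and cultured 1 to 3 (C1 to C3), with dots for libraries, a line for the group mean and a band for the mean ± SD, cut at 0. Vcam1 is between 643 and 848 CPM in fresh and between 180 and 230 CPM in cultured libraries, and Ptprc, Itgam and Ly6a lie mostly in run 1.

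Itga7, the laminin-binding integrin chain used to sort the cells in, was at 79.9, 99.4, 67.1, 51.6 and 56.9 CPM in fresh 1 to 5 and at 110, 50.8 and 89.4 CPM in cultured 1 to 3. The groups overlapped: cultured 1 was the highest and cultured 2 the lowest of all 8 libraries. Mean levels of 71.0 ± 19.2 CPM (fresh) and 83.5 ± 30.1 CPM (cultured) resulted, and the log2 fold change of 0.62 ± 0.36 (± SE) missed the threshold (adjusted p = 0.241, edgeR). Its sign was positive under all 17 alternatives, from 0.04 to 1.01, none of which called it. On mm10, the build named in the submitters' processing notes, the gene spans 128933818 to 128958282 of chromosome 10, plus strand (positions here and below are from GENCODE M21).

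Cd34, the sialomucin used as the other positive marker, was at 256, 278, 253, 124 and 283 CPM in fresh 1 to 5. It was at 150, 211 and 153 CPM in cultured 1 to 3. Fresh 4 stood apart from the other fresh libraries, at 253 to 283 CPM, and it was lower than every cultured library, so the groups overlapped through this library alone. The log2 fold change was -0.25 ± 0.34 (adjusted p = 0.638, edgeR). Without fresh 5 the run-2 reference is fresh 4 alone and the value was 0.48, and without fresh 4 it was -0.67, neither of them called. Cd34 lies on the plus strand of chromosome 1, 194938819 to 194961279. An antisense gene, Gm16897, overlaps it, and strand is not said to have been used in the counting. Gm16897 had 3.98 to 8.60 CPM in fresh and 0.79 to 6.12 CPM in cultured libraries, small beside Cd34.

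Vcam1, the adhesion protein gene outside the labelled sort, was at 643, 709, 803, 848 and 717 CPM in fresh 1 to 5. In cultured 1 to 3 it was at 230, 213 and 180 CPM. The lowest fresh library was well above the highest cultured one, and the groups did not overlap. The mean fell from 744 ± 81.3 to 208 ± 25.3 CPM, a log2 fold change of -1.92 ± 0.21 (adjusted p = 0.000607, edgeR), or 3.77-fold. The call was kept under all 17 alternatives, with values from -2.02 to -1.51. Fresh libraries of the runs differed little for this gene, at 719 ± 80.3 CPM in run 1 (n = 3) and 783 ± 92.6 CPM in run 2 (n = 2), and the run term was 0.12 ± 0.21 (adjusted p = 0.920, edgeR). Vcam1 lies on the minus strand of chromosome 3, 116109949 to 116129688. VCAM-1 is also made by activated endothelial and stromal cells. Their marker lists fell with it: endothelial genes summed to 107 to 158 CPM in fresh and 6.85 to 13.5 CPM in cultured libraries, and fibro-adipogenic sums are given above. Of the endothelial sum in fresh libraries, 52.8 to 88.8 CPM came from Tek alone. Fresh 1, where the fibro-adipogenic, pericyte and Schwann lists were lowest, had the lowest fresh level of Vcam1. Fresh 2, with the highest pericyte and Schwann sums, had the next lowest, at 709 CPM. Fresh 4, with the highest fibro-adipogenic sum, had the highest, at 848 CPM. The part of these cells in the Vcam1 level was not tested.

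Ratios of 1 gene to another within a library need no scaling between libraries. Vcam1 to Itga7 counts stood at 8.05, 7.14, 12.0, 16.5 and 12.6 in fresh 1 to 5 and at 2.09, 4.19 and 2.01 in cultured 1 to 3. No cultured ratio reached a fresh one, and the mean log2 ratio fell by 2.05, or 4.13-fold (p = 0.0179, two-sided exact permutation test over the 8 libraries, 0.0268 after Benjamini-Hochberg adjustment over 3 ratios). The value 0.0179 is the smallest that 56 splits can give. Vcam1 to Cd34 fell by 1.40 on the log2 scale, or 2.65-fold, from 2.51 to 6.83 in fresh to 1.01 to 1.53 in cultured libraries (exact permutation p = 0.0179, adjusted 0.0268). Cd34 to Itga7 ran from 2.41 to 4.97 in fresh and from 1.36 to 4.15 in cultured libraries, which overlap (exact permutation p = 0.196; 0.0476 without cultured 2, which lay at 4.15). Within run 2 the first 2 ratios also separated the groups, at a p of 0.1, the smallest that 2 against 3 libraries can give. These ratios show unequal change of Vcam1 and the sort-in genes, and do not show that either sort-in gene kept its level.

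**Figure D2:**
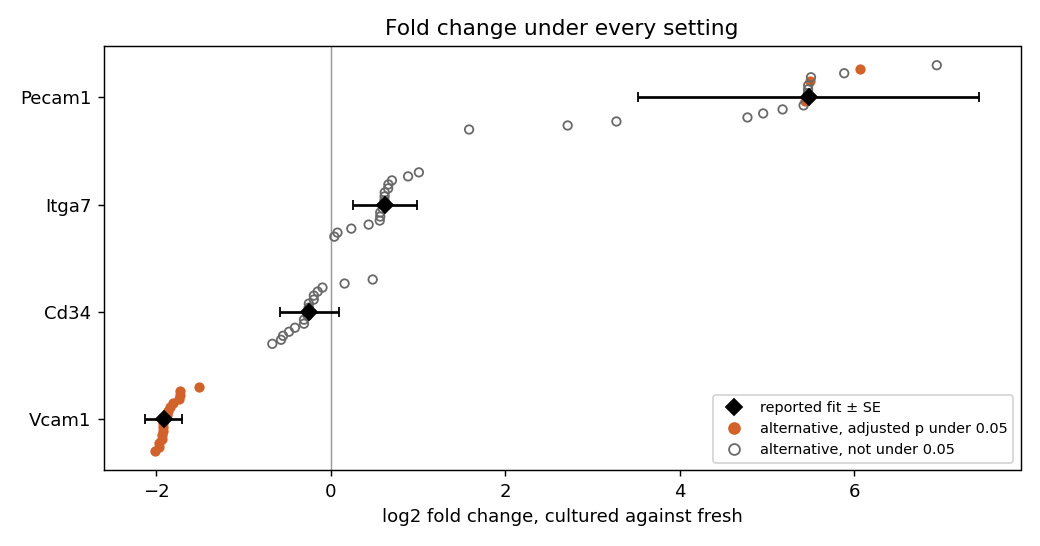
Log2 fold change of cultured against fresh cells (x axis) for Vcam1, Cd34, Itga7 and Pecam1, with a black diamond ± SE for the reported fit and 1 dot for each of 17 alternatives, filled where the adjusted p was under 0.05. All Vcam1 dots are filled and lie between -2.02 and -1.51, Cd34 lies on both sides of 0, and Pecam1 spreads from 1.59 to 6.95 with 3 filled dots.

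Per kilobase of exon the members could be ordered. In fresh cells Vcam1 had 83.9 CPM per kb, Cd34 32.8 and Itga7 8.77. The ranges over the 5 libraries were 72.5 to 95.6, 17.0 to 38.8 and 6.37 to 12.3 CPM per kb, so these neighbours in the order did not overlap. Ly6a, Pecam1, Itgam and Ptprc followed at 0.497, 0.404, 0.293 and 0.158 CPM per kb, with ranges that overlapped fully. In cultured cells Cd34 and Vcam1 were level at 23.5 and 23.4 CPM per kb, with ranges of 20.6 to 29.0 and 20.3 to 25.9. Itga7 stayed below both at 6.28 to 13.6 CPM per kb, and Pecam1 came next at 3.92 CPM per kb on average. Among 18280 genes ranked per kb, Vcam1 went from the percentile 97.7 in fresh to 90.1 in cultured cells, Cd34 from 94.4 to 90.1 and Itga7 from 78.6 to 79.1. Both sort-in transcripts were in the upper ranks in both groups.

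Ptprc, the CD45 gene by which blood cells are sorted out, had 98.9, 17, 129, 0 and 0 counts in fresh 1 to 5 and 1, 2 and 0 in cultured 1 to 3. Only run-1 libraries held more than 3 counts. In CPM, run-1 fresh libraries had 5.64, 1.14 and 7.74, and every library of run 2 had 0.103 or less. No fold is given against the run-2 fresh libraries, since both groups lay at or under 3 counts in sum (adjusted p = 0.293, edgeR). Against run 1 the pooled level in cultured cells was lower, at a run-1 to cultured ratio of 96.3 (95% counting interval 32.6 to 470, 3 counts in culture), and the run-2 fresh libraries were at least 51.8-fold lower than run 1, on a floor of 3 counts over the group. The gap lay between runs of the same kind of cell. Ptprc is on the minus strand of chromosome 1, 138062861 to 138175708.

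Itgam, the CD11b gene of myeloid cells, had 53.3, 44.9, 19.1, 1.01 and 2.01 counts in fresh 1 to 5 and 45.8, 4.01 and 4.02 in cultured 1 to 3. Again run 1 was high and run-2 fresh libraries were near 0, but cultured 1, at 2.42 CPM, was level with run 1. The groups overlapped. Pooled over libraries, the cultured level was 9.67 times that of the run-2 fresh libraries (95% counting interval 3.14 to 48.4, 3 counts in fresh), and the edgeR test did not call it (adjusted p = 0.151). Against run 1 the pooled cultured level was lower by a ratio of 2.56 (1.84 to 3.60), and the edgeR fit against run 1 alone did not call it (adjusted p = 0.410). The direction of the pooled ratio thus depends on the run of the fresh cells, and neither direction was called. Without cultured 1 the cultured to run-2 fresh ratio was 2.13 (0.511 to 12.5), and without fresh 5 it was 14.7 (2.53 to 592). Itgam is on the plus strand of chromosome 7, 128062640 to 128118491. Of the 50-base windows of its transcripts, 66.3% also occur in Gm49368, an overlapping GENCODE M21 gene that has no line in the table. Whether the authors' annotation held that gene is unknown, so the Itgam counts are uncertain too.

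Ly6a, the Sca1 gene, had 10, 19.9, 15.6, 0 and 2 counts in fresh 1 to 5 and none in any cultured library. All counts but 2 were in run 1, at 0.57 to 1.34 CPM. The cultured level was at least 18.1-fold lower than in run 1 (floor of 3 counts over the cultured libraries), and no fold is given against run 2, where both groups lay under 3 counts (adjusted p = 0.134, edgeR). A count of 0 in all cultured libraries allows up to 0.0517 CPM. The locus on chromosome 15, with Ly6a on the minus strand at 74994877 to 74998031, holds close copies, and 19% of the 50-base windows of Ly6a transcripts also occur in 4 other genes, so its few counts are uncertain. The first 90 coding bases, from GENCODE M21 transcripts on mm10, are shown as an example of how close the copies are. Capitals mark bases that differ from Ly6a or have no partner in it.
Ly6a: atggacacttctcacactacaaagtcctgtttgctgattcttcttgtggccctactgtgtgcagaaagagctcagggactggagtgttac
Ly6c1: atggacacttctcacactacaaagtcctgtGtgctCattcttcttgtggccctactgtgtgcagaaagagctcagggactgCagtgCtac
Ly6c2: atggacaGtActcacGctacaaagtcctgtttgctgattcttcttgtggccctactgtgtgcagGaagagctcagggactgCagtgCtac
Ly6i: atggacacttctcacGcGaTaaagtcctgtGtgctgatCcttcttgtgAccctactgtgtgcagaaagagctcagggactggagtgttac
Ly6e: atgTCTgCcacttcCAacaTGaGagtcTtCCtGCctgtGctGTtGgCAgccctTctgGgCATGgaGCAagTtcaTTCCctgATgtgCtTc

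Over this stretch Ly6c1 differed from Ly6a at 4 bases, Ly6c2 and Ly6i at 6 each, and Ly6e at 35, with 3 more capitals for inserted bases among 6 gap columns. The longest run identical to Ly6a was 45 bases in Ly6c1, 48 in Ly6c2, 41 in Ly6i and 6 in Ly6e, so the shared 50-base windows are not contained in this stretch. Over the whole coding sequence the identity to Ly6a was 76.3, 83.5, 86.3 and 57.1% in that order. Ly6c1 (coding start to end 75044329 to 75048511), Ly6c2 (75108546 to 75111667) and Ly6i (74979917 to 74983059) lie on the minus strand of the same chromosome, and Ly6e (74957808 to 74958710) on the plus strand. Ly6c1 and Ly6c2, surface proteins of monocytes and endothelium, behaved as Ly6a did across libraries: 0.40 to 1.27 and 0.85 to 1.54 CPM in run 1, and no count in any library of run 2. Ly6e, a broadly expressed relative that is unlike Ly6a in sequence, was at 47.7 to 121 CPM in fresh and 63.4 to 135 CPM in cultured libraries (log2 fold change 0.69 ± 0.40, adjusted p = 0.235, edgeR). Of the 10 tested genes of the Ly6 family, 1 rose and 4 fell, with a median log2 fold change of -1.31 where genes at 0 stand at their bound and -2.12 as fitted. Across all genes tested, these medians were -0.29 and -0.21, with 8.87% called higher and 18.0% lower. Plaur, the urokinase receptor, rose from 6.89 ± 4.11 to 75.0 ± 37.8 CPM (4.60 ± 0.63, adjusted p = 0.00154, edgeR). Cd59a, an inhibitor of complement, fell from 24.4 ± 10.3 to 0.205 ± 0.152 CPM (-6.88 ± 0.94, adjusted p = 0.00159; -7.50 without cultured 3). Lynx1, a modulator of acetylcholine receptors, fell from 34.3 ± 4.49 to 0.136 ± 0.156 CPM (-8.04 ± 0.93, adjusted p = 0.000729; -7.42 without cultured 1). Without cultured 3, Lynx1 had 2 counts left in culture, at a run-2 fresh to cultured ratio of 729 (95% counting interval 201 to 6029).

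Pecam1, the CD31 gene of endothelium, had 79, 40, 72, 14.0 and 3 counts in fresh 1 to 5, and 666, 2 and 747 in cultured 1 to 3. In CPM the fresh libraries had 4.50, 2.67, 4.32, 0.88 and 0.20, and the cultured ones had 35.1, 0.103 and 38.1. Cultured 1 and 3 were above every fresh library and cultured 2 was below all of them. The log2 fold change was 5.48 ± 1.95 and missed the threshold (adjusted p = 0.0677, edgeR). Without cultured 2 it was 6.07 (adjusted p = 0.00323), so 1 library decided the call. It was 4.78 without fresh 5, and the pooled ratio without fresh 4, which leaves 3 fresh counts, was 125 (95% counting interval 42.6 to 606) against 44.7 with it, neither called. DESeq2 and the fit without a filter also called it. Pecam1 is on the minus strand of chromosome 11, 106654217 to 106750628.

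The high level of Pecam1 in cultured 1 and 3 was not seen in the other endothelial markers. Cdh5, the endothelial cadherin, was at 9.77 to 33.2 CPM in fresh libraries and at 0, 0.154 and 0 CPM in cultured 1 to 3. Tek, the angiopoietin receptor, was at 52.8 to 88.8 CPM in fresh and at 0.263, 0.463 and 3.01 CPM in cultured libraries (-6.01 ± 0.90, adjusted p = 0.00241, edgeR; -7.75 without cultured 3). Of the 16 endothelial genes, 10 were tested, 3 fell and 0 rose, with a median of -2.62 where genes at 0 stand at their bound and -2.96 as fitted. Across all genes tested, these medians were -0.29 and -0.21, with 18.0% called lower and 8.87% higher. In the cultured libraries 9 of the 16, the VEGF receptor gene Kdr and the endothelial factor Erg among them, had no count. In the run-2 fresh libraries 6 of the 16 had none either. The summed list was 6.85, 12.4 and 13.5 CPM in cultured 1 to 3, and cultured 1, with Pecam1 at 35.1 CPM, had the lowest sum. Levels that were high in all but 1 library also occurred elsewhere in the table. Among genes tested, 17 were at 10 CPM or more in cultured 1 and 3 and under 1 CPM in cultured 2, 138 were so with cultured 1 as the low library and 26 with cultured 3. In fresh cells the same count for run 1 was 0 to 2 genes per low library, and for run 2, with 1 library against the other, 23 and 34. The nearest gene on the other strand, Milr1, chosen after its values were seen, had 11.1, 10.5 and 18.1 CPM in cultured 1 to 3 and 1.77 to 5.41 CPM in fresh libraries. It was not called (1.82 ± 0.80, adjusted p = 0.128, edgeR). Polg2, a neighbour on the same strand, had 3.00, 12.2 and 81.7 CPM in cultured 1 to 3 and 14.8 to 39.8 CPM in fresh libraries (-0.16 ± 1.04, adjusted p = 0.959, edgeR).

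**Figure D3:**
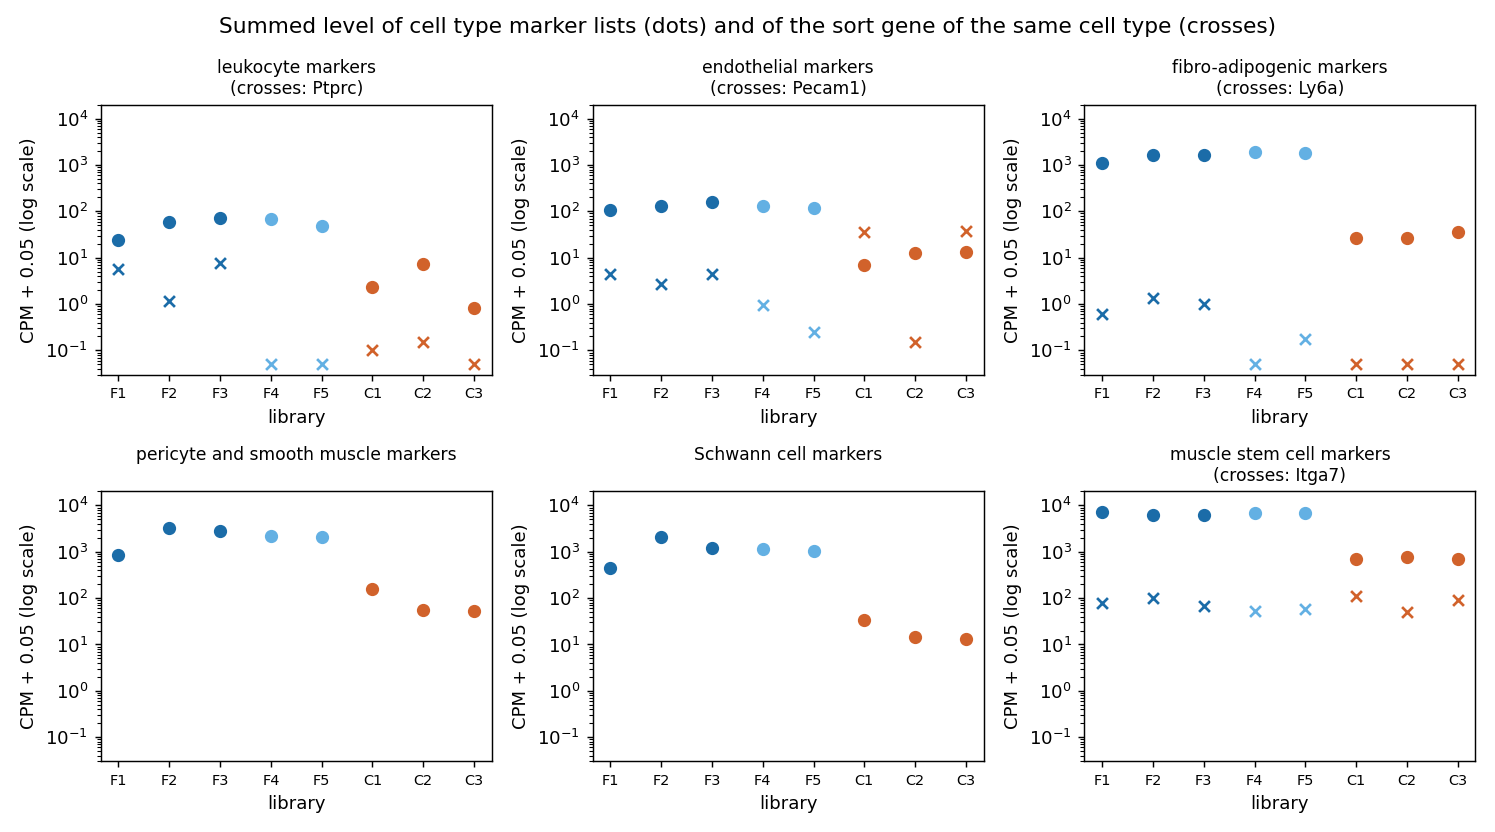
Summed CPM of 6 marker lists (dots) and of the sort gene of that cell type (crosses) in F1 to F5 and C1 to C3, plotted as CPM + 0.05 on a log axis, in dark blue for fresh run 1, light blue for fresh run 2 and orange for cultured. Every list sum is lower in the cultured than in the fresh libraries, while the Pecam1 crosses of C1 and C3 lie above their list and the Ptprc and Ly6a crosses are high in F1 to F3 only.

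Blood cell markers had few counts, and 1 gene, Lyz2, held much of their sum. The 20 leukocyte genes summed to 23.9, 58.0 and 72.2 CPM in run 1, to 68.5 and 49.1 CPM in the run-2 fresh libraries, and to 2.32, 7.26 and 0.764 CPM in cultured 1 to 3. Lyz2, the lysozyme of macrophages, made up 23.9% of the sum in fresh 1 and 60.5 to 91.5% in fresh 2 to 5, at 5.70 to 62.7 CPM. It was at 0 in all cultured libraries, which is at least 1027-fold below the run-2 fresh level (adjusted p = 0.00165, edgeR). Without Lyz2 the sums were 18.2, 22.9 and 23.6 CPM in run 1 and 5.81 and 5.93 CPM in the run-2 fresh libraries, so the rest of the list was higher in run 1, as Ptprc was. The number of the 20 genes with any count was 18 or 19 in run 1, 5 or 6 in the run-2 fresh libraries and 3 or 4 in culture. Tyrobp and C1qa, an adaptor and a complement gene of myeloid cells, were at 0.114 CPM or less in every library. Of the 7 tested leukocyte genes, 3 fell in culture and 0 rose, with a median of -4.32 where genes at 0 stand at their bound and -0.57 as fitted. For all genes tested, these medians were -0.29 and -0.21, with 18.0% called lower and 8.87% higher. In cultured 1, where Itgam was highest, its obligate partner Itgb2 had no count, and Itgb2 was at 4.74 CPM in cultured 3 alone, where Itgam was at 0.204 CPM. The cell source of these few reads was not tested.

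The comparison of run 2 with run 1 among fresh cells asks how far a sort-out gene can be read across the batches of this study. In the fit of all libraries, 0 of the 7 members were called, where 0.189% of genes were. At an unadjusted p under 0.05, which 15.5% of all genes met, the same fit had 3, namely Ptprc (adjusted p = 0.0618, edgeR), Itgam (0.190) and Ly6a (0.202). When the fresh libraries were fitted alone, which called 21.5% of genes and 16.1% as lower in run 2, Ptprc (adjusted p = 0.0284) and Itgam (0.0306) were called lower in run 2. Ly6a (0.0677) and Pecam1 (0.0563) missed the threshold there. DESeq2, which called 4.83% of genes, called Ptprc only (adjusted p = 0.00122). Cultured libraries fitted against run 1 alone, where 38.7% of genes were called and 25.4% as lower, gave 3 members as lower: Vcam1, Ptprc (adjusted p = 0.0105, edgeR) and Ly6a (0.00396). Pooled over libraries, run 2 was lower than run 1 by a ratio of 24.7 for Itgam (95% counting interval 8.25 to 122, 3 counts in run 2), 14.6 for Ly6a (3.81 to 124, 2 counts) and 7.12 for Pecam1 (4.33 to 12.5). For Pecam1 it was 19.9 (6.70 to 97.2) without fresh 4 and 4.39 (2.55 to 8.18) without fresh 5, for Itgam 37.6 (6.63 to 1499) without fresh 5, and for Ly6a 7.18 (1.88 to 61.0) without fresh 4. Itga7, Cd34 and Vcam1 had run terms of -0.60 ± 0.36, -0.37 ± 0.34 and 0.12 ± 0.21, none called.

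Low counts were widespread in run 1: 5117 protein-coding genes without a count in any of the 5 run-2 libraries had counts there, at a median of 0.136 CPM per kb in the run-1 fresh mean (quartiles 0.0700 and 0.250). Ptprc, at 0.264 CPM per kb in run 1, lay above 77% of that set, Itgam (0.475) above 91.7%, Pecam1 (0.615) above 95% and Ly6a (0.793) above 97.3%. Every member had counts in run 2, so none belongs to that set, which was chosen for having no run-2 count. A place above most of it is therefore no test against a background level. The run-1 levels of the 4 sort-out genes lay in the upper part of that set, and how far such low counts make up theirs was not tested. Itga7, Cd34 and Vcam1, at 10.1 to 81.0 CPM per kb in run 1, lay above all of it.

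The partners of the α7 chain changed unequally in culture. Of 19 tested genes for its partner, other laminin receptors and laminins, 1 rose and 8 fell, with a median log2 fold change of -1.28, against -0.21 over all genes tested. Among all genes tested, 8.87% were called higher and 18.0% lower. Itgb1, the β1 chain that pairs with α7, was at 322, 379, 323, 259 and 236 CPM in fresh 1 to 5 and at 297, 408 and 386 CPM in cultured 1 to 3, an overlap. Its log2 fold change was 0.56 ± 0.22 (adjusted p = 0.0985, edgeR). Dag1, the dystroglycan gene and the most abundant laminin receptor of the list, fell from 2920 ± 721 to 181 ± 32.1 CPM (-4.09 ± 0.33, adjusted p = 0.000157). Itgb4, the partner of α6, fell from 67.3 ± 15.6 to 2.40 ± 0.89 CPM (-4.87 ± 0.48, adjusted p = 0.000356). Lamb2, a laminin β chain, fell from 98.8 ± 16.3 to 8.09 ± 3.15 CPM (-3.65 ± 0.40, adjusted p = 0.000564). Lama4, the laminin α4 chain of vessels and nerve, was at 11.7 to 63.2 CPM in fresh libraries and at 0 in all cultured ones, which is at least 635-fold below the run-2 fresh level (adjusted p = 0.00119). The 1 gene that rose was Itga3, another laminin-binding α chain, named to complete that count: it went from 7.59 ± 2.41 to 65.0 ± 22.7 CPM (2.84 ± 0.53, adjusted p = 0.00567). Pericyte and Schwann markers fell beside these genes, and their part in the falls of Lama4, Itgb4 and Dag1 was not tested.

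**Figure D4:**
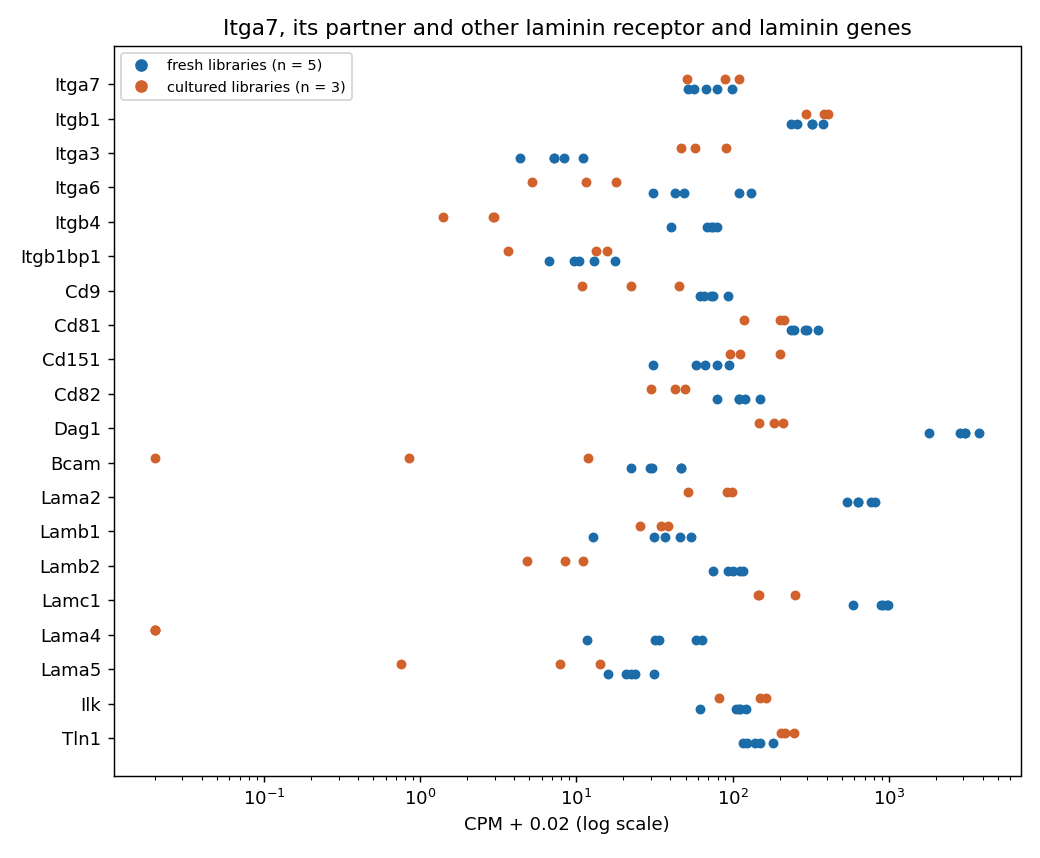
CPM + 0.02 on a log axis (x) of Itga7, its β1 partner and the other tested laminin receptor, adaptor and laminin genes (y), with blue dots for the 5 fresh and orange dots for the 3 cultured libraries. Dots of Itga7 and Itgb1 overlap between groups, Itga3 is higher in all cultured libraries, and Dag1, Itgb4, Lamb2 and Lama4 are lower in all of them.

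Among the relatives of CD34, Podxl, which encodes podocalyxin, the closest relative of CD34, was at 4.33 to 7.01 CPM in fresh libraries. It was at 79.6, 95.8 and 48.5 CPM in cultured 1 to 3. The groups were far apart, and the log2 fold change was 3.81 ± 0.50 (adjusted p = 0.00128, edgeR). In the whole list of CD34 relatives and selectins, 1 of 5 tested genes rose, Podxl, and 1 fell, Podxl2 (adjusted p = 0.00612, edgeR), named to complete that count. The median was -2.14 where genes at 0 stand at their bound and 0.00 as fitted. All genes tested had medians of -0.29 and -0.21 in that order, with 8.87% called higher and 18.0% lower. The test of Cd34 itself is given above, and the difference between Cd34 and Podxl was not tested.

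The α chains that bind VCAM-1 fell with the gene, while their β1 partner did not pass the test. Itgb7, the β7 chain gene of the same list, fell from 3.35 ± 1.82 CPM to 0 in all cultured libraries (adjusted p = 0.00684, edgeR). Itga4, the α4 chain that binds VCAM-1, was at 7.52, 4.34, 16.1, 1.39 and 2.74 CPM in fresh 1 to 5 and had 1 count in all cultured libraries. Pooled counts gave a run-2 fresh to cultured ratio of 119 (interval 20.6 to 4778; adjusted p = 0.00893, edgeR). The single count was in cultured 1, and without it the level was at least 26.7-fold lower. Itga9, the α9 chain and another VCAM-1 receptor, went from 8.78 ± 5.91 to 0.0686 ± 0.119 CPM (-6.07 ± 1.48, adjusted p = 0.0162, edgeR). All 4 of its counts in culture were in cultured 2, and without that library the level was at least 65.6-fold below the run-2 fresh level. The value was -5.47 without cultured 1, and the call was lost without fresh 4 (adjusted p = 0.0637) and in run 2 alone (0.0932). Over all genes tested, 18.0% were called lower and 8.87% higher, with a median of -0.21. Over the 16 tested genes for VCAM-1 receptors and immunoglobulin adhesion proteins, 6 fell and 0 rose, with a median of -2.07. The count was 3 without fresh 1 or fresh 2 and 2 without fresh 4. Mcam, a marker of pericytes also in that list, fell from 36.9 ± 16.7 to 1.79 ± 1.86 CPM (-4.21 ± 1.29, adjusted p = 0.0408), and Nectin3 from 99.7 ± 35.6 to 67.4 ± 8.41 CPM (-0.97 ± 0.28, adjusted p = 0.0341). With 1 library left out, Mcam kept the call without cultured 1 (-3.57) or cultured 3 (-5.27) and otherwise lost it (adjusted p up to 0.155). Nectin3 lost it without fresh 1, 2 or 4 or cultured 2 or 3, and was at -0.63 without fresh 4 and at -0.16 against run-1 fresh libraries.

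In the list of CD45 partners and receptor tyrosine phosphatases and in that of CD31 partners, more genes fell than rose. The same held over all genes tested, where 18.0% were called lower and 8.87% higher. Their median was -0.29 where genes at 0 stand at their bound and -0.21 as fitted. Among the leukocyte integrin genes none was called by edgeR. Many genes of these lists did not pass the test. Of 4 tested leukocyte integrin genes, 0 were called in either direction by edgeR and 1 by DESeq2, with a median of 0.43. Only Itgal, the α chain of LFA-1, had an unadjusted p under 0.05, at 1.87 ± 1.20 CPM in fresh and 0 in culture (adjusted p = 0.0507), and 1 gene was called without fresh 4 or without cultured 2. Of 16 tested genes for CD45 partners and receptor tyrosine phosphatases, 7 fell and 0 rose, with a median of -1.89, and 4 fell without fresh 5. Ptprd fell from 206 ± 49.8 to 40.2 ± 20.7 CPM (-2.69 ± 0.42, adjusted p = 0.00295), and Ptprj from 80.4 ± 12.5 to 26.8 ± 8.65 CPM (-1.66 ± 0.34, adjusted p = 0.00772; 0.0555 without fresh 5). Ptprg fell from 252 ± 52.8 to 129 ± 52.8 CPM (adjusted p = 0.0195; 0.0945 without fresh 4 and 0.0638 without fresh 5). Ptprf fell from 78.0 ± 16.6 to 24.9 ± 18.5 CPM (adjusted p = 0.0376), and its call was lost without any 1 of the fresh libraries (0.0541 to 0.169) and without cultured 3 (0.0978). Without cultured 2 its value was -2.60, against -1.86. Ptprcap, the CD45-associated protein gene, was too low to be tested, at 0.267 to 1.14 CPM in fresh and at most 0.0515 CPM in cultured libraries. Of 7 tested CD31 partners, 1 rose and 3 fell, with a median of -2.57 where genes at 0 stand at their bound and -2.02 as fitted. The calls numbered 1 without fresh 5 and 2 without fresh 1, 2 or 3 or cultured 3. Ctnnb1, the β-catenin gene, rose from 227 ± 46.7 to 473 ± 60.1 CPM (0.84 ± 0.23, adjusted p = 0.0285; 0.199 without fresh 5 and 0.0700 without cultured 3). Jup, the plakoglobin gene, fell from 141 ± 40.1 to 8.79 ± 7.75 CPM (-4.33 ± 0.69, adjusted p = 0.00318; -5.32 without cultured 2). Plcg1, a phospholipase, fell from 84.3 ± 13.6 to 19.4 ± 17.0 CPM (-2.02 ± 0.60, adjusted p = 0.0355; -3.02 without cultured 2), and its call was lost without any 1 of the fresh libraries (0.0550 to 0.169) and without cultured 3 (0.0898).

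Other surface genes by which muscle stem cells have been sorted showed how Vcam1, Itga7 and Cd34 sit among the choices. Of 22 tested, 4 rose, 12 fell and 6 were not called, with a median log2 fold change of -1.68. Among all genes tested, 8.87% were called higher and 18.0% lower, with a median of -0.21. Chodl, the chondrolectin gene, went from 887 ± 435 to 2.08 ± 1.03 CPM (-9.33 ± 0.48, adjusted p = 2.14e-05, edgeR), and Fgfr4, a growth factor receptor, from 438 ± 95.8 to 3.19 ± 1.74 CPM (-7.27 ± 0.49, adjusted p = 7.78e-05). Thy1, the CD90 gene, fell from 52.0 ± 11.8 to 0.0681 ± 0.0778 CPM (-9.07 ± 0.74, adjusted p = 0.000158; -8.48 without cultured 1). Without cultured 3, Thy1 had 1 count left in culture, at a run-2 fresh to cultured ratio of 1566 (95% counting interval 281 to 61892). The 4 that rose, named to complete the count, were Tfrc, the transferrin receptor (5.30 ± 0.30), Cd44, the hyaluronan receptor (3.71 ± 0.29), Met, the hepatocyte growth factor receptor (1.99 ± 0.24), and Sdc3, a syndecan (1.57 ± 0.37), as log2 fold changes. All 12 genes of the muscle stem cell list fell, with a median of -4.32, a larger fall than the -1.92 of Vcam1 for 11 of them.

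Genes with the most similar profiles were found by the root-mean-square (RMS) difference of log2 CPM over the 8 libraries, each gene centred on its mean, among 7916 protein-coding genes of at least 10 CPM. Nearest to Vcam1 were Cav1, the caveolin gene (RMS 0.150), Atrnl1 (0.182) and Ric1 (0.199), and 355 genes lay within 0.5. Nearest to Itga7 were Pea15a (0.155), Plau, the urokinase gene (0.180), and Rtcb (0.205), with 765 genes within 0.5. Nearest to Cd34 were Hs6st1 (0.174), Vps53 (0.212) and Rnf146 (0.236), with 577 within 0.5. No gene lay within 0.5 of a sort-out gene. The nearest was Lars2 for Ly6a (0.583), Slmo1 for Itgam (0.930), Muc6 for Ptprc (1.48) and Morc4 for Pecam1 (1.51). These numbers depend on the spread of the member itself and do not compare how far profiles are shared. The SD of log2 CPM was 0.43 for Itga7, 0.46 for Cd34, 0.97 for Vcam1 and 1.59 to 2.78 for the sort-out genes. Ptprc, Itgam and Ly6a also had means below the 10 CPM asked of the other genes.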

How the data were processed

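Per the labels' protocols, total RNA of the sorted cells went through NuGEN Ovation amplification before sequencing. No molecular identifier is named, so counting intervals and the floors of 3 counts leave out other error. STAR, RSEM and mm10 stand in the submitters' processing notes, with tool versions and annotation release not given in the sources used here. A table of 45798 lines of expected counts, estimated by RSEM, is what the authors deposited. RSEM shares reads that fit several genes among them. Of the values above 0, 50.1% were not whole, and all were rounded before testing, and 92 ERCC spike-in lines were left out.

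The filterByExpr function of edgeR 4.0.16 (R 4.3.3) left 19054 genes, and TMM factors were 0.790 to 1.18. Its quasi-likelihood fit had run and culture as terms, 5 residual degrees of freedom and a Benjamini-Hochberg threshold of 0.05. An SE is the log2 fold change divided by the root of its F value, and so is approximate. In the results, ratios of pooled counts or bounds on 3 counts stand beside or in place of fitted folds for groups under 4 counts. Fitted values of such groups under alternatives depend on the prior count and are no bound. DESeq2 1.42.0 was an alternative, as were other scalings, filters, sets of libraries and 1 library left out. A gene that missed the threshold is not shown to be unchanged. Within a run, libraries of a group differed by more than counting noise (chi-square per gene 44.8 to 220), so none repeats another. This does not tell technical from biological replicates.

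The 7 genes and all lists were chosen with earlier results of these data known. Named beside the members are, per list, up to 4 called genes of at least 10 CPM with the largest fold change, or else the 2 of highest level in lists with under 2 such genes, fixed binding partners, and the 3 nearest profiles per member. Genes that complete a count, and Kdr, Erg, Tyrobp, C1qa, Itgb7, Milr1 and Polg2, were chosen after their values were seen. Identifiers matched GENCODE M21 for 98.8%, and 1 listed gene was not matched.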

Additional observations from a re-analysis of the deposited data

Results flagged for a closer look

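In fresh 4, Cd34 was at 124.3 CPM, far below the next fresh library at 253.3 CPM. The gap took 0.815 of the range of the 5 fresh libraries, which is beyond the 95% critical value of Dixon's test for 5 samples. In all, 22 groups of values were checked, and chance marks about 1 in 20. Fresh 4 and fresh 5, at 282.6 CPM, are the run-2 fresh libraries with which the test compares the cultured ones, so the Cd34 reference is a mean of unlike values.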

How the results depend on the processing

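Vcam1 kept its call under all 17 alternatives, and Itga7 was called under none of them. Settings that treat the runs differently moved the other members. Against run-1 fresh libraries alone (38.7% of genes called) 3 members were called, Vcam1, Ptprc (fitted log2 fold change -6.31) and Ly6a (-7.07), with Itgam at -1.32. With no run term (36.8% of genes) 2 were called, Vcam1 and Ly6a (-6.39), with Ptprc at -5.62 and Itgam at -0.64. With 3 Ptprc counts and 0 Ly6a counts in culture these fitted values are no bounds. Pooled counts put Ly6a at least 18.1-fold lower than in run 1 and 11.6-fold lower than in all fresh libraries, and Ptprc lower by ratios of 96.3 (32.6 to 470) and 59.0 (19.9 to 288). In both, run-1 fresh libraries enter the comparison, which the run term otherwise sets apart. Pecam1 was called with no filter on low counts (5.50, 12.7% of genes called), by DESeq2 (5.44, 35.9%) and without cultured replicate 2 (6.07, 25.5%), which made 2 members called each time, and leaving out 1 library gave 1 to 2. Its leave-one-out values ran from 4.78 to 6.95. Cd34 changed sign with no scaling factors (0.16), and when 1 library was left out it ran from -0.67 to 0.48. Without fresh replicate 5, Ly6a had no count in either run-2 group and no value, and no value stands where a member missed the filter.

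Genes called in culture numbered 2780 in run 2 alone and 3337 to 6163 when 1 library was left out, the fewest without fresh replicate 5 and 3402 without fresh replicate 4. With no scaling factors the median log2 fold change moved from -0.21 to 0.03, and 46.2% of calls were higher in culture, against 33.0%. Between runs of fresh cells 81 genes were called with no filter, 921 by DESeq2 and 4574 from fresh libraries alone, against 36. When 1 of the run-1 fresh libraries was left out, the number was between 16 and 36. For members these numbers were 1 by DESeq2 and 2 from fresh libraries alone. Of 680 values of 40 other named genes under alternatives, 631 kept direction and call, 49 lost the call and 0 changed sign. A count of 0 in culture allows 0.0517 CPM.

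Replicate numbers 1 to 3 occur in both groups, but the labels do not say that they pair libraries, and deviations of same-numbered libraries correlated at 0.030, 0.010 and 0.011. With a replicate block, which compares run-1 fresh with cultured libraries, 2731 genes (14.9%) and 1 member were called, Ptprc was at -6.14, Itgam at -2.12 and Pecam1 at 1.59. The same fit called 3 genes of the VCAM-1 receptor list (against 6), 3 receptor phosphatases (7), 3 Ly6 genes (5), 1 CD34 relative (2) and 1 leukocyte gene (3).

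In run 2 alone, 2 VCAM-1 receptor genes, 1 CD31 partner (4) and 1 leukocyte gene were called. Against run-1 fresh libraries the numbers were 8 for Ly6 genes, 6 for leukocyte and 7 for endothelial genes (3), and with no run term 6 endothelial genes were called. With no scaling factors 2 CD31 partners were called. Of the leukocyte integrins 1 was called with no run term, against run 1, with RLE scaling, with no filter and by DESeq2.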
